A study of Mus musculus with 6 samples.

Results

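The genes described here are the nuclear genes for subunits of respiratory complex III, complex IV (cytochrome c oxidase) and the ATP synthase, in cells sorted from mouse mammary tumors. They were chosen by symbol, as every gene starting with Uqcr, Cox4, Cox5, Cox6, Cox7, Cox8 or Atp5, without pseudogenes. The deposited table of 14897 genes held 38 of them, with 8 for complex III, 13 for complex IV and 17 for the ATP synthase. RNA was sequenced from 2 spontaneous mammary tumors of FVBN mice in which the MMTV promoter, active in mammary epithelium, drives the polyoma virus middle T oncogene (PyMT), and all groups share this strain and oncogene. Each tumor was sorted into 3 populations, which were CD29hi CD61+ breast cancer stem cells (P1), ALDH+ breast cancer stem cells (P2) and the bulk, non-CSC cells (P0). There was 1 library per population and tumor. Whether both tumors grew in the same mouse, and at what age, is not given in the labels.

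Complex III passes electrons from ubiquinol to cytochrome c, complex IV passes them from cytochrome c to oxygen, and both pump protons across the inner mitochondrial membrane. The ATP synthase uses that gradient to make ATP, with a catalytic F1 head joined by stalks to a membrane part that holds a rotating ring of c subunits. The catalytic core of complex IV and a few subunits of the other complexes come from mitochondrial DNA, whose genes are not analysed here, while the genes below sit in the nucleus and their proteins are imported. Nuclear genes of the respiratory chain are known targets of the factors NRF1 and GABPA, and of the coactivator PGC-1 (*Ppargc1a* and *Ppargc1b*).

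Reads counted in genes numbered 19037070 to 48008802 per library, and levels are given as RPKM, that is, reads divided by the length of the gene and the depth of its library. The tumor 1 libraries lacked reads for more genes than those of tumor 2. Of the 12512 genes tested, those without a read were 5.05% in P1, 15.9% in P2 and 12.1% in P0 of tumor 1, against 0.751%, 1.56% and 0.759% in tumor 2. Luminal epithelial markers (8 of 8 in every library) summed to between 11200 and 22400 RPKM, and basal markers summed to 628 and 766 RPKM in P1 (tumors 1 and 2), 492 and 351 RPKM in P2 and 236 and 261 RPKM in P0. Fibroblast markers, 8 genes, summed to 7.68 and 68.1 RPKM in P1, 52.0 and 354 RPKM in P2 and 1.68 and 5.08 RPKM in P0, so they were highest in P2 in both tumors. In P1 3 and 1 of the 8 had no reads, in P2 3 and 0, and in P0 5 and 4. Endothelial markers (5 of 7 listed had values) and lymphocyte markers (2 of 7) stayed at or under 2.23 RPKM in sum. In RNA of sorted cell pools, fewer cells of a type and less RNA per cell cannot be told apart.

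To show what the start of such a gene looks like, RefSeq promoter windows (build GRCm38.p6, 250 bases before to 50 after the annotated start) were read for the 31 members that have one. The letters GCGCATGC, the core that NRF1 binds, were searched on both strands, so that GCATGCGC also counts. They stood in the windows of 6 of 31 members (19.4%), which were *Atp5g2*, *Atp5k*, *Atp5l*, *Cox6a1*, *Uqcr11* and *Uqcrc1*. Of all 27025 RefSeq genes with a window, 824 (3.05%) had them. This background is not limited to genes expressed in these tumors, unlike the members. The GABPA letters CCGGAAGT, or ACTTCCGG, were in 4 of 31 (12.9%; *Atp5h*, *Cox8a*, *Uqcr11* and *Uqcrh*) and in 4.31% of these RefSeq genes. TATAAA, or TTTATA, was in 1 of 31 (3.23%, *Atp5l*) and in 15.7% of them. A match is a description of the letters and not a site shown to be bound. The windows below, 5′ to 3′ along each gene, are those of *Cox6a1* and *Atp5g2*, whose mRNA was above P0 in P2 of both tumors, of *Atp5l*, whose mRNA was below P0 there, and of *Atp5g3*, a c subunit gene like *Atp5g2* whose window lacks the letters. Capitals mark GCGCATGC or GCATGCGC, which overlap and read as 1 run in *Cox6a1* and *Atp5g2*. The capitals begin at base 89 of the window in *Cox6a1*, at base 209 in *Atp5g2* and at base 11 in *Atp5l*, with 162, 42 and 240 bases from there to the annotated start.
Cox6a1 (chr5:115348909-115349208, minus strand): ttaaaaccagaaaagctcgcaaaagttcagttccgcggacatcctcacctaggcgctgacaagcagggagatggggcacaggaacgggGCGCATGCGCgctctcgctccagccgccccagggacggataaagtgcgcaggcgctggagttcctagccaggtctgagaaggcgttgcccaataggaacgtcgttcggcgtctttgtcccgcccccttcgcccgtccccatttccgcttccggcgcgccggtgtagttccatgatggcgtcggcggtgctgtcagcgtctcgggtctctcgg
Atp5g2 (chr15:102670998-102671297, minus strand): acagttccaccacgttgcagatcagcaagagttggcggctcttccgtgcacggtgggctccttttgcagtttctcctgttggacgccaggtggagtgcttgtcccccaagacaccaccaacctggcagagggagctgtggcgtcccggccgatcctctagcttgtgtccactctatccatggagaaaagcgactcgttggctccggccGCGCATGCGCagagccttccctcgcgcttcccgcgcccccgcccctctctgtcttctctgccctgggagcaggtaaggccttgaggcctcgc
Atp5l (chr9:44920693-44920992, minus strand): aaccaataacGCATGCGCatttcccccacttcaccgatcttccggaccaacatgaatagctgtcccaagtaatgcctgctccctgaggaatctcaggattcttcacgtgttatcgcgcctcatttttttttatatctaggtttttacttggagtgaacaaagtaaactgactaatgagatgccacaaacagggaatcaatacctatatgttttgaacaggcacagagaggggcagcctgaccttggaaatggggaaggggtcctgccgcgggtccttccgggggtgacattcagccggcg
Atp5g3 (chr2:73911277-73911576, minus strand): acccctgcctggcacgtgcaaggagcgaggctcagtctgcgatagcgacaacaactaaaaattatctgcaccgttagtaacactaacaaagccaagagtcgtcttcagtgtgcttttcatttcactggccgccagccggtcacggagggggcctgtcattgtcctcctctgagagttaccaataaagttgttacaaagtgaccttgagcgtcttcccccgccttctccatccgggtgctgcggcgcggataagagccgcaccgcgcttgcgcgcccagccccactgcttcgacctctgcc

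Of the 38 genes, most are among the more abundant mRNAs of these tumors, and most are short. Their lengths ran from 292 to 2436 bases with a median of 710, and 26 (68.4%) were under 1000 bases, against 9.28% of the genes tested. In sum they held 0.442% and 0.411% of the reads in P1, 0.431% and 0.464% in P2 and 0.515% and 0.407% in P0. *Atp5g3*, a c subunit gene, had the highest mean level, with 523 and 378 RPKM in P1, 588 and 399 RPKM in P2 and 1080 and 386 RPKM in P0. *Atp5b*, the catalytic beta subunit, followed with 542 and 498 RPKM in P1, 477 and 537 RPKM in P2 and 714 and 503 RPKM in P0. For both genes the P0 library of tumor 1 was the highest of the 6. The lowest genes were the tissue-restricted isoforms *Cox7a1* and *Cox4i2* and the genes *Atp5s* and *Atp5sl*, which RefSeq now names *Dmac2l* and *Dmac2*. By mean level they stood at percentiles 33.4, 9.71, 34.0 and 41.3 of all deposited genes, in this order, and so below most genes. *Cox4i2* did not reach 1 RPKM in 2 libraries and was not tested, which left 37 genes.

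**Figure D1:**
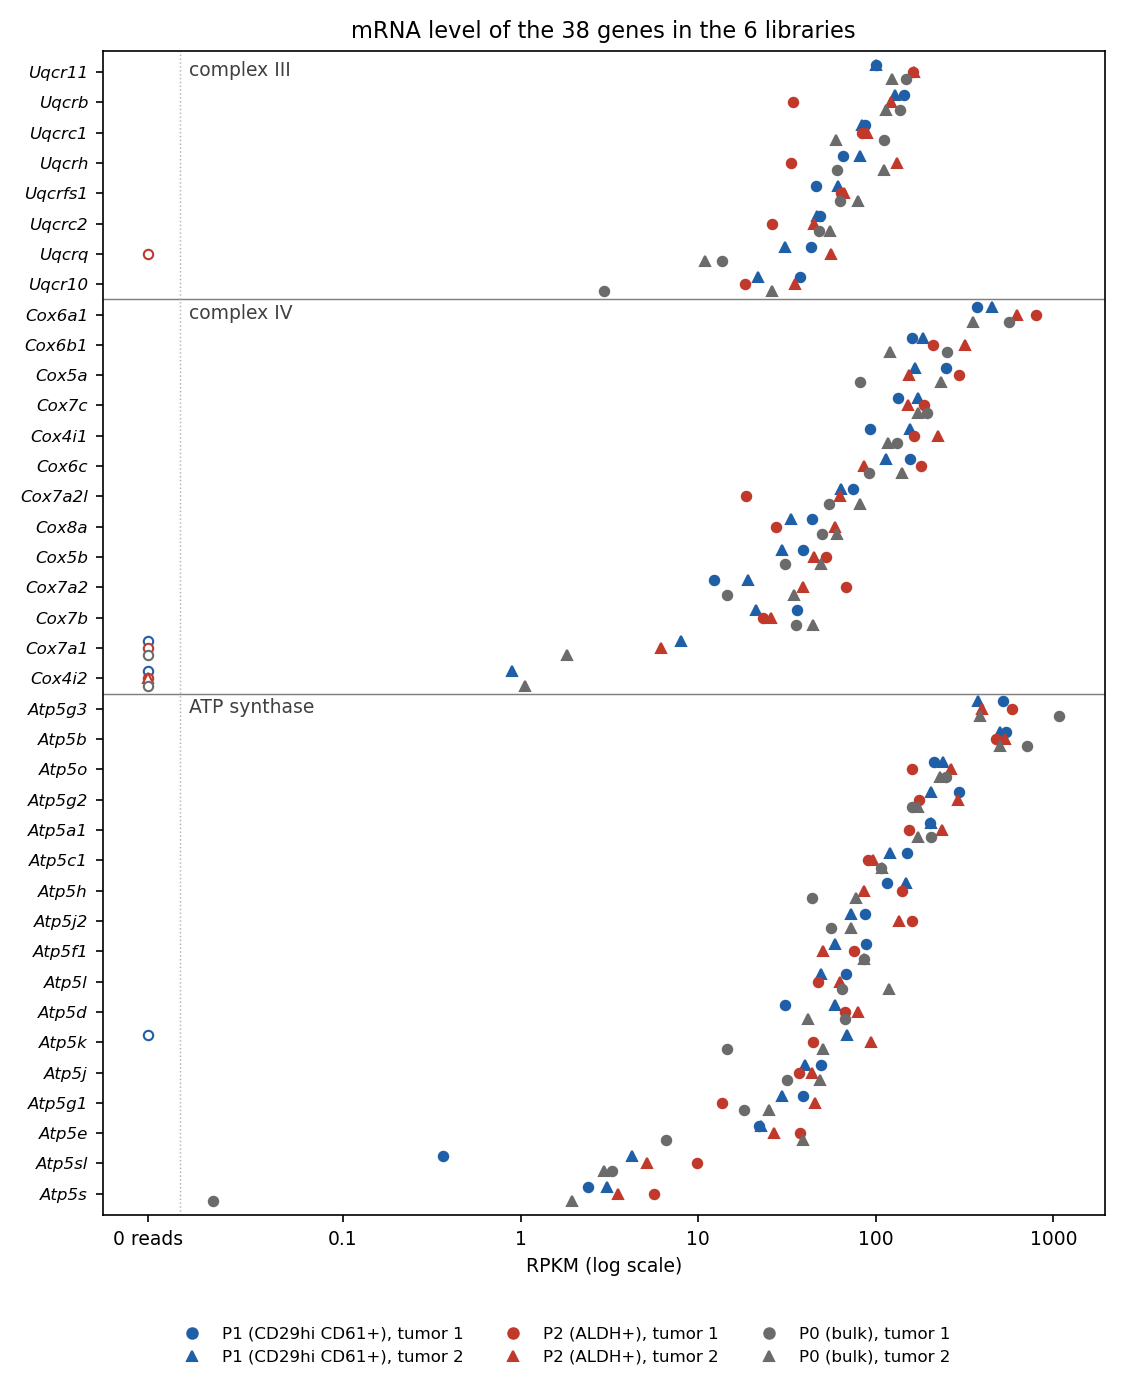
RPKM on a log scale of the 38 genes in each library, by complex and in order of mean level. Colors give the population, circles tumor 1 and triangles tumor 2, and open symbols left of the dotted line mark libraries without a read. Most genes lie between 10 and 1000 RPKM with the 3 populations intermixed.

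None of the 37 genes differed between populations at an adjusted p under 0.05 by limma in any of the 3 comparisons, where 0.0% of all 12512 genes did. Tumors served as replicates, n = 2 per population, and p-values measure only the spread between these libraries. An exact permutation test of 2 against 2 libraries cannot give a two-sided p below 0.333. Where libraries of populations are said below not to overlap, the share of all genes doing the same was not counted. Such statements are a description only. At an unadjusted p under 0.05 by limma, 1 gene (2.7%) differed in P1 against P0, 1 (2.7%) in P2 against P0 and 3 (8.11%) in P1 against P2, against 1.89%, 3.91% and 2.49% of all genes tested. With the tumor as a block, the members numbered 1, 4 and 5, where 3.43%, 6.13% and 4.49% of all genes had such a p, and still none passed the adjusted threshold (lowest adjusted p = 1.0, 0.65 and 0.949, limma). The voom method on the recovered reads also called 0 of the 37, and 9, 1 and 7 genes of all in the same order of comparisons. The comparisons share libraries, so they are not independent of each other.

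The first comparison asks how CD29hi CD61+ cells differed from bulk cells. The median log2 difference of the 37 genes was -0.04 in P1 against P0, and 0.12 over all genes. The within-tumor medians were 0.01 and -0.01, and with the trend over gene length removed the median was -0.318. In both tumors 7 genes were higher in P1 (18.9%) and 6 were lower (16.2%), and over all genes the shares were 29.2% and 17.6%. A difference of at least 1.5-fold on RPKM + 1 in both tumors, a rule set after the values were seen, was reached upward by 2 genes (5.41%; all genes 5.69%) and downward by 0 (all genes 1.65%).

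The 2 genes were *Atp5h* and *Uqcrq*. *Atp5h*, the d subunit of the peripheral stalk, had 116 and 148 RPKM in P1, 140 and 86.3 RPKM in P2 and 43.8 and 77.6 RPKM in P0. Both P1 libraries were above both P0 libraries, and the log2 fold change of P1 against P0 was 1.15 (SE 0.40, unadjusted p = 0.0188, adjusted p = 1.0, limma). *Uqcrq*, a small subunit of complex III, had 43.2 and 30.8 RPKM in P1 and 13.6 and 11 RPKM in P0, again without overlap. Its log2 fold change was 1.5 with an SE of 1.49 (adjusted p = 1.0, limma), a wide error because P2 enters the same estimate of spread and had 0 reads in tumor 1 and 56.3 RPKM in tumor 2. *Atp5s*, called factor B in older names, had 2.41 and 3.06 RPKM in P1 and 0.0186 and 1.94 RPKM in P0 (log2 fold change 1.10, SE 0.74, adjusted p = 1.0, limma). The lowest of these values is 1 read, and the ratio of P1 to P0 in tumor 1, 130, has a counting interval of 23.0 to 5150 (95%, exact). Without the P0 library of tumor 1, the fold change was 0.75 for *Atp5h* and 0.34 for *Atp5s*, and without that of tumor 2 it was 1.87 for *Atp5s*.

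Of the genes lower in P1 than in P0 in both tumors, *Atp5g3* had the lowest log2 fold change, -0.54 (SE 0.51, adjusted p = 1.0, limma). Its difference was -1.05 in tumor 1 and -0.03 in tumor 2, and without the P0 library of tumor 1 the fold change was 0.20, against -1.28 without that of tumor 2 and -0.30 without the P1 library of tumor 2. *Cox8a*, a small membrane subunit of complex IV, had 43.6 and 33.2 RPKM in P1 and 50.1 and 60.8 RPKM in P0 (-0.53, SE 0.42, adjusted p = 1.0, limma). *Cox7a2*, a subunit at the contact of complexes III and IV, had 12.3 and 19.1 RPKM in P1 and 14.5 and 34.7 RPKM in P0 (-0.53, SE 0.51, adjusted p = 1.0, limma). The P1 and P0 ranges of *Cox7a2* overlapped, and those of *Cox8a* did not. Leaving out 1 library moved the *Cox7a2* value to between -1.13 (without P0 of tumor 1) and 0.07 (without P0 of tumor 2), and that of *Cox8a* to -0.33 without P1 of tumor 2.

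ALDH+ cells were compared with bulk cells next. The median log2 difference of the 37 genes was 0.13 in P2 against P0 and 0.00 over all genes, while the median of the 1161 tested genes under 1000 bases was 0.24. With the trend over gene length removed, the median of the 37 genes was -0.125, and without the P0 library of tumor 1 it was -0.027. The within-tumor medians of the 37 genes were 0.00 and 0.15. By complex, the medians were -0.21 for complex III, 0.44 for complex IV and 0.22 for the ATP synthase. Within tumors 1 and 2 they were -0.63 and 0.33 for complex III and 0.01 and 0.20 for the ATP synthase. The complex IV median was 0.16 within tumor 1 and -0.08 within tumor 2, with 3 of its 12 tested genes higher and 4 lower in P2 of both tumors. In both tumors 12 genes were higher in P2 (32.4%, all genes 24.5%) and 8 were lower (21.6%, all genes 22.9%). The 1.5-fold rule was met upward by 4 genes (10.8%; all genes 5.66%), namely *Atp5j2*, *Atp5k*, *Atp5s* and *Atp5sl*, and downward by 1 (2.7%; all genes 3.01%), *Cox7b*.

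*Atp5j2*, the f subunit of the membrane part, was chosen after its values were seen, as the gene with the lowest unadjusted p in this comparison. It had 160 and 135 RPKM in P2, against 86.9 and 72.3 RPKM in P1 and 55.9 and 72.9 RPKM in P0. Both P2 libraries were above the other 4 libraries (log2 fold change of P2 against P0 1.19, unadjusted p = 0.00477, adjusted p = 0.985, limma). *Atp5k*, the e subunit, which neighbours f and g in the membrane, had 44.5 and 94.2 RPKM in P2 and 14.5 and 50.5 RPKM in P0 (log2 fold change 1.22, SE 1.62, adjusted p = 0.993, limma). It was higher in P2 within each tumor, but tumor 2 of P0 exceeded tumor 1 of P2. *Atp5l*, the g subunit, went the other way, with 47.4 and 62.7 RPKM in P2 and 64.6 and 119 RPKM in P0 (-0.67, SE 0.39, adjusted p = 0.985, limma). Without the P0 library of tumor 1, the value was 0.35 for *Atp5k* and -1.11 for *Atp5l*, without that of tumor 2 it was 2.09 and -0.24, and without P2 of tumor 2 it was 0.69 for *Atp5k*.

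*Atp5s* had 5.64 and 3.54 RPKM in P2 and 0.0186 and 1.94 RPKM in P0 (log2 fold change 1.66, SE 0.74, adjusted p = 0.985, limma), and without the P0 library of tumor 1 the fold change was 0.90. In tumor 1 the P2 to P0 ratio of 303 has a counting interval of 53.8 to 12000 (95%, exact), because P0 had 1 read. *Atp5sl*, whose product takes part in complex I assembly in human cells, had 9.86 and 5.15 RPKM in P2 and 3.29 and 2.95 RPKM in P0. Neither of these genes encodes a core subunit of the ATP synthase. Without them and without *Cox7a2l*, the median of the remaining 34 genes was 0.10, with 10 higher and 7 lower in P2 of both tumors.

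In complex III, *Uqcr10*, a small subunit, had 18.4 and 35.1 RPKM in P2 and 2.94 and 26.2 RPKM in P0 (log2 fold change 1.35, SE 0.83, adjusted p = 0.985, limma). Without the P0 library of tumor 1, the fold change was -0.04, and without that of tumor 2 it was 2.75. Among the lower genes, *Cox7a2l*, known as a factor that joins complexes III and IV into supercomplexes, had 18.7 and 63.1 RPKM in P2 and 54.9 and 81.3 RPKM in P0 (-0.93, SE 0.53, adjusted p = 0.985, limma). The value was -0.08 without the P2 library of tumor 1 and -1.78 without that of tumor 2. *Cox7b*, a small subunit of complex IV, had 23.3 and 25.6 RPKM in P2, against 35.8 and 44.3 RPKM in P0 (-0.68, SE 0.38, adjusted p = 0.985, limma). For *Cox7b* both P2 libraries were under both P0 libraries, and P1, with 36.2 and 21.2 RPKM, spanned them.

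The last comparison sets CD29hi CD61+ cells against ALDH+ cells. The median log2 difference was 0.04 in P1 against P2, and 0.11 over all genes, with within-tumor medians of 0.00 and -0.23. Without the P2 library of tumor 1 it was -0.249. In both tumors 5 genes were higher in P1 (13.5%, all genes 31.0%) and 14 were lower (37.8%, all genes 21.5%). The 1.5-fold rule was met upward by 0 genes (all genes 4.09%) and downward by 3 (8.11%; all genes 3.19%), which were *Cox7a2*, *Atp5j2* and *Uqcr11*. These were also the 3 genes with an unadjusted p under 0.05.

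*Cox7a2* had 12.3 and 19.1 RPKM in P1, against 68.0 and 38.7 RPKM in P2. Both P1 libraries were under both P2 libraries (log2 fold change of P1 against P2 -1.68, SE 0.51, unadjusted p = 0.0104, adjusted p = 1.0, limma). *Uqcr11*, another small complex III subunit, was chosen after its values were seen and had 101 and 100 RPKM in P1, 162 and 164 RPKM in P2 and 148 and 124 RPKM in P0. It varied least between tumors of the 3 genes, and its log2 fold change of P1 against P2 was -0.69 (unadjusted p = 0.0418, adjusted p = 1.0, limma). *Atp5sl* had 0.368 and 4.22 RPKM in P1 and 9.86 and 5.15 RPKM in P2 (-1.61, SE 0.78, adjusted p = 1.0, limma). The value was -0.65 without the P1 library of tumor 1 and -2.58 without that of tumor 2.

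*Atp5k* had no read in P1 of tumor 1 and 68.9 RPKM in P1 of tumor 2. At the limit of 3 reads, 0.214 RPKM, the tumor 1 level was at least 208-fold lower in P1 than in P2 and at least 67.6-fold lower than in P0, while the log2 difference of P1 against P2 in tumor 2 was -0.45. The fitted fold change of -2.98 (SE 1.62, adjusted p = 1.0, limma) depends on the value added before the logarithm, and without the P1 library of tumor 1 it was 0.09, against -6.04 without that of tumor 2. The opposite case was *Uqcrq*, which had no read in P2 of tumor 1. At the limit of 3 reads, 0.253 RPKM, that library was at least 171-fold lower than P1 and at least 53.9-fold lower than P0 of the same tumor, and in tumor 2 P2 had the highest level of the 3 populations. Without the P2 library of tumor 2, *Uqcrq* alone of the 37 genes passed the adjusted threshold (log2 fold change -3.73 in P2 against P0, adjusted p = 0.0396, and 5.23 in P1 against P2, adjusted p = 0.0156, limma), and 40 and 55 genes of all were past it. P2 is then 1 library, the one with the largest share of genes without reads, assumed to vary like the other populations, so these p-values say nothing of the spread in P2. The part that share has in the result was not tested. Both limits cover counting error only.

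The genes higher in P1 than in P2 in both tumors were led by *Uqcrb*, a ubiquinone-binding subunit of complex III, with 145 and 128 RPKM in P1 and 34.3 and 122 RPKM in P2 (log2 fold change 1.06, SE 0.53, adjusted p = 1.0, limma). *Cox7a2l* had 74.6 and 63.8 RPKM in P1 and 18.7 and 63.1 RPKM in P2 (0.98, SE 0.53, adjusted p = 1.0, limma). In both genes the difference lay in tumor 1, and the tumor 2 differences were 0.07 and 0.02. Without the P2 library of tumor 1, the fold changes were 0.16 and 0.13, and without that of tumor 2 they were 1.96 and 1.83. *Atp5c1*, the gamma subunit that turns inside the F1 head, had 150 and 120 RPKM in P1 and 90.7 and 96.2 RPKM in P2 (0.52, SE 0.29, adjusted p = 1.0, limma), with both P1 libraries above both P2 libraries.

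**Figure D2:**
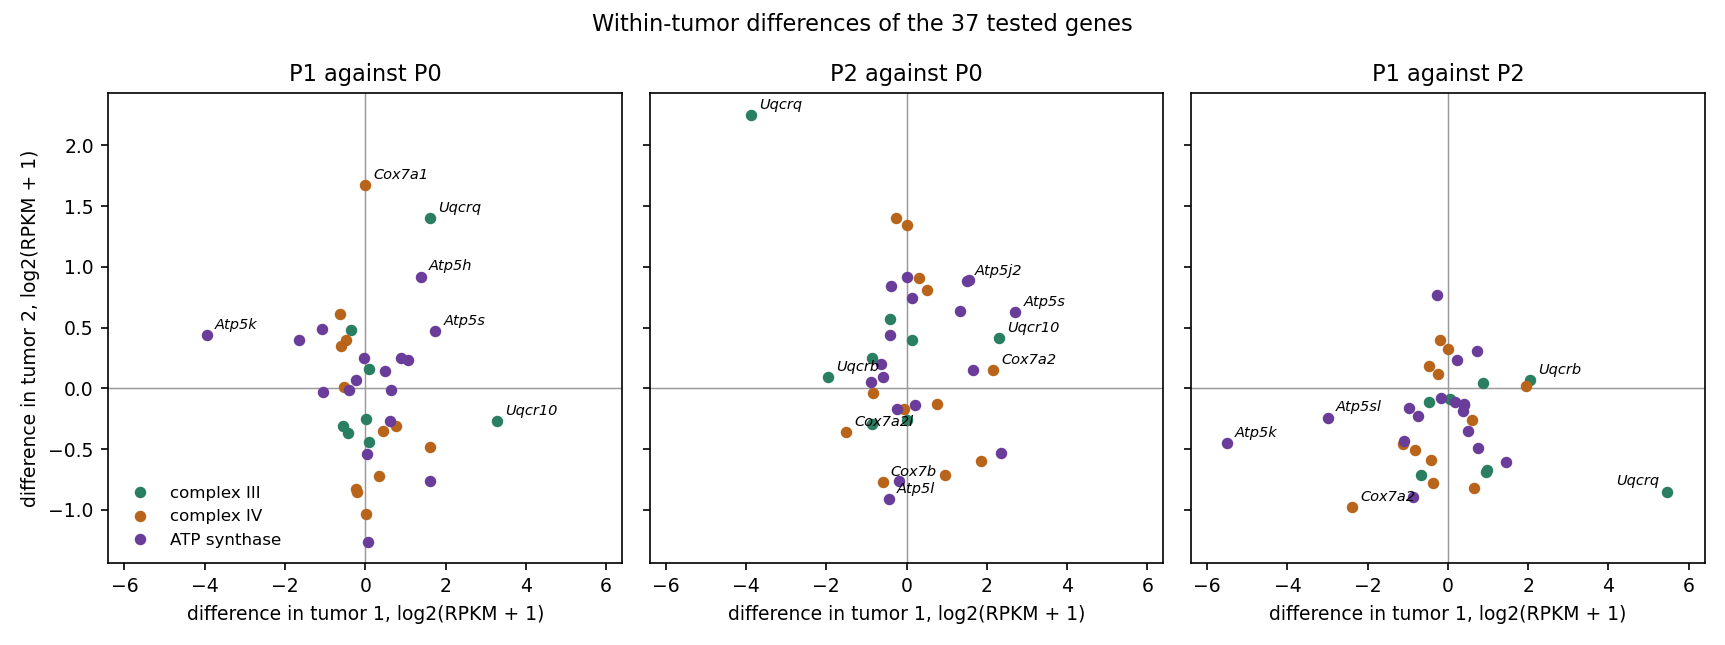
Difference in log2(RPKM + 1) within tumor 1 (x axis) and within tumor 2 (y axis) of the 37 tested genes, one panel per comparison, colored by complex. The axes have different ranges, and points in the upper right or lower left quadrant have the same direction in both tumors, as 13, 20 and 19 genes did. *Uqcrq* and *Atp5k* lie far out along tumor 1 because a tumor 1 library had no read.

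The remaining subunits followed no common order of the populations. Of the core proteins of complex III, *Uqcrc1* had 87.1 and 83.4 RPKM in P1, 84.1 and 89.0 RPKM in P2 and 112 and 59.6 RPKM in P0, and *Uqcrc2* had 48.6 and 46.5 RPKM in P1, 25.9 and 45.2 RPKM in P2 and 48.2 and 55.3 RPKM in P0. *Uqcrfs1*, the Rieske iron-sulfur protein, had 46.2 and 61.6 RPKM in P1, 63.9 and 66.3 RPKM in P2 and 63.0 and 79.7 RPKM in P0. *Uqcrh*, the hinge protein, had 65.2 and 81.5 RPKM in P1, 33.2 and 132 RPKM in P2 and 60.8 and 111 RPKM in P0. For *Uqcrh* the P2 libraries were the lowest and the highest of the 6, and *Uqcrc2* was lowest in P2 of tumor 1.

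In complex IV, *Cox6a1*, the broadly expressed isoform of subunit 6a, was the most abundant, with 802 and 621 RPKM in P2, against 371 and 452 RPKM in P1 and 563 and 354 RPKM in P0. *Cox4i1*, the regulatory subunit 4 of most tissues, had 164 and 224 RPKM in P2, against 93.2 and 157 RPKM in P1 and 131 and 118 RPKM in P0. For both genes the P2 libraries were above all others. *Cox5a* varied widely, with 249 and 166 RPKM in P1, 296 and 153 RPKM in P2 and 81.5 and 232 RPKM in P0, and its order was reversed between tumors. *Cox6b1*, *Cox7c*, *Cox6c* and *Cox5b* overlapped between P2 and P0, with levels between 29.6 and 319 RPKM over all libraries.

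In the F1 head, the alpha subunit gene *Atp5a1* had 201 and 205 RPKM in P1, 154 and 235 RPKM in P2 and 205 and 173 RPKM in P0. The delta subunit gene *Atp5d* had 30.8 and 58.9 RPKM in P1, 67.4 and 79.8 RPKM in P2 and 66.9 and 41.6 RPKM in P0, and the epsilon subunit gene *Atp5e* had 22.0 and 22.5 RPKM in P1, 37.6 and 26.6 RPKM in P2 and 6.6 and 38.9 RPKM in P0. In *Atp5d* the P2 libraries were the highest, by a margin under 1 RPKM over P0 of tumor 1. In the stalk, *Atp5o* (OSCP), *Atp5f1* (b subunit) and *Atp5j* (F6) had ranges of 160 to 264, 50.5 to 87.7 and 31.8 to 48.9 RPKM over the 6 libraries.

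Summed over its genes, complex IV was above both P0 libraries in both P2 libraries, as the complex I and complex II lists were too. The complex IV sum was 2030 and 1790 RPKM in P2, 1370 and 1420 RPKM in P1 and 1500 and 1410 RPKM in P0, a ratio of P2 to P0 of 1.35 in tumor 1 and 1.27 in tumor 2. Complex I (36 genes) summed to 1340 and 1560 RPKM in P2 and 1050 and 1130 RPKM in P0. The complex II list (6 genes, with the assembly factors *Sdhaf1* and *Sdhaf2* among them) summed to 242 and 222 RPKM in P2 and 126 and 153 RPKM in P0. For complex IV, P1 stood at 0.675 and 0.794 of P2, and at 0.913 and 1.01 of P0. *Cox6a1* carried part of this. Without it the P2 sums were 1220 and 1170 RPKM, against 936 and 1060 RPKM in P0, with ratios of 1.31 and 1.11. The next most abundant complex IV genes, *Cox6b1* and *Cox5a*, changed direction between the tumors. Their log2 differences of P2 from P0 were -0.26 and 1.4 for *Cox6b1* and 1.85 and -0.6 for *Cox5a* (tumors 1 and 2). Of the 12 tested genes, 3 (*Cox6a1*, *Cox4i1* and *Cox7a2*) were higher in P2 in both tumors and 4 were lower. No test was made of these sums. Fibroblast markers were also highest in P2, and their part in this difference was not tested.

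Complex III summed to 422 and 710 RPKM in P2, 574 and 553 RPKM in P1 and 585 and 581 RPKM in P0. The ratio of P2 to P0 was 0.721 in tumor 1 and 1.22 in tumor 2, so that the direction differed between tumors. The ATP synthase summed to 2280 and 2450 RPKM in P2, 2430 and 2200 RPKM in P1 and 2910 and 2140 RPKM in P0, with P2 to P0 ratios of 0.785 and 1.15. Without *Atp5g3*, the sums were 1690 and 2050 RPKM in P2, 1900 and 1820 RPKM in P1 and 1830 and 1750 RPKM in P0.

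**Figure D3:**
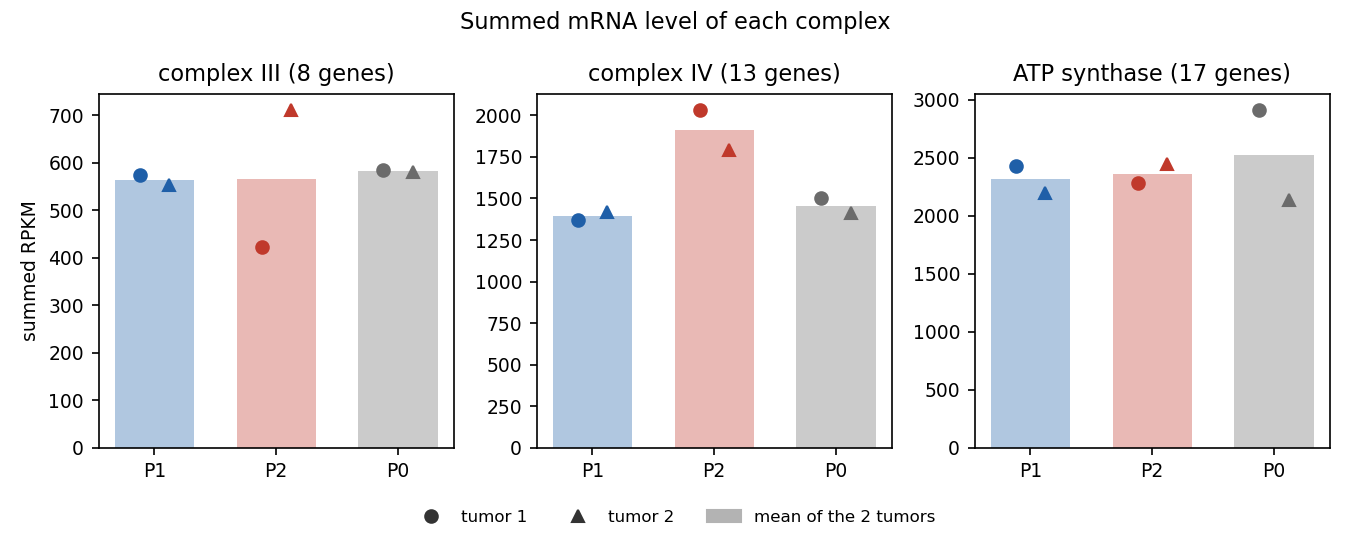
Summed RPKM of the genes of each complex (8, 13 and 17 genes) in P1, P2 and P0, with circles for tumor 1, triangles for tumor 2 and bars for the mean of the 2 tumors. Complex IV is above the other populations in both P2 libraries, and the 2 P2 libraries of complex III stand furthest apart.

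The c subunit is encoded by 3 genes whose mature proteins are identical and whose import sequences differ. *Atp5g3* made up 61.0% and 61.6% of their summed RPKM in P1, 75.7% and 54.5% in P2 and 85.9% and 66.2% in P0, with the highest share in P0 in tumor 1 and tumor 2. *Atp5g2* held 34.5% and 33.5% in P1, 22.5% and 39.3% in P2 and 12.7% and 29.5% in P0. In RPKM, *Atp5g2* had 296 and 206 in P1, 175 and 289 in P2 and 160 and 172 in P0. Both P1 and both P2 libraries were thus above both P0 libraries, but P2 of tumor 1 only narrowly so. *Atp5g1* had the smallest share in all 6 libraries, between 1.44% and 6.2%. The P1 libraries differed by less than 1 percentage point in the *Atp5g3* share. The P2 libraries and the P0 libraries differed by more than the population means did (61.3% in P1, 65.1% in P2 and 76.1% in P0). Within tumor 1, however, the P1 and P0 shares (61.0% and 85.9%) stood further apart than either.

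**Figure D4:**
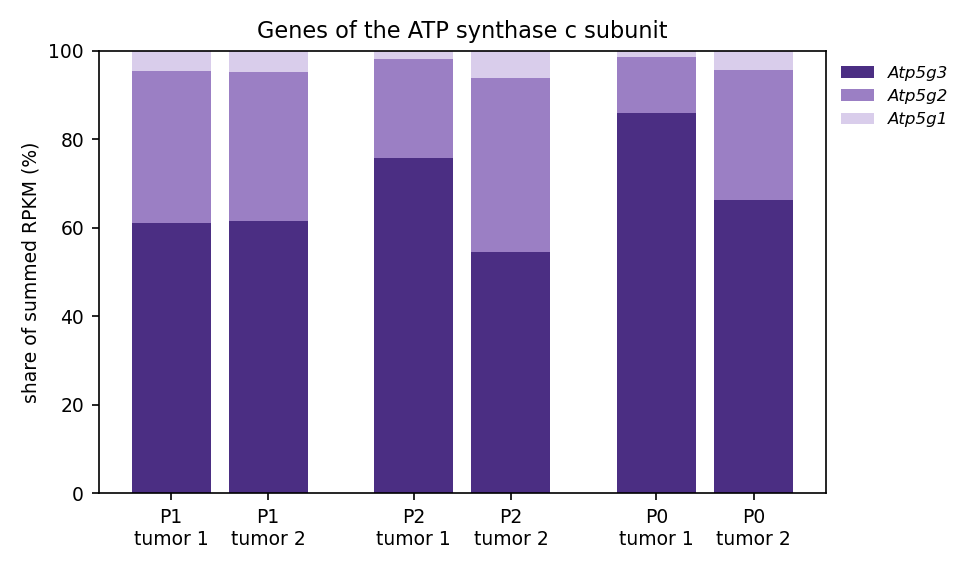
Share, in percent of their summed RPKM, of *Atp5g3*, *Atp5g2* and *Atp5g1* in each library. *Atp5g3* holds 54.5% to 85.9%, with its highest share in P0 of tumor 1.

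Tissue-restricted isoforms had few or no reads in tumor 1. *Cox7a1*, the heart and muscle form of subunit 7a, had no read in any tumor 1 library, and 7.97 RPKM in P1, 6.17 RPKM in P2 and 1.83 RPKM in P0 of tumor 2. At the limit of 3 reads, the tumor 1 libraries allow up to 0.171 RPKM in P1, 0.345 RPKM in P2 and 0.226 RPKM in P0. Of 13 muscle markers 4 had values, and *Acta1*, skeletal muscle actin, made up most of their sum in every library, with 57.3 and 110 RPKM in P1, 190 and 168 RPKM in P2 and 240 and 94.0 RPKM in P0. The other 3, *Tnni2*, *Atp2a1* and *Mb*, had no reads in P1 and P0 of tumor 1 and at most 27.9 RPKM elsewhere, and the part of muscle RNA in the *Cox7a1* level was not tested. *Cox4i2*, a lung form of subunit 4, had reads in 2 libraries only, 0.892 RPKM in P1 and 1.06 RPKM in P0 of tumor 2. Its counterpart *Cox4i1* made up at least 99.1% of subunit 4 RPKM in each library. *Cox7a2* made up between 70.6% (P1 of tumor 2) and 100% of the RPKM summed over *Cox7a1* and *Cox7a2*. That sum leaves out the related gene *Cox7a2l*.

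Between the tumors of a population, the spread of the members was close to that of other genes. The median absolute log2 difference between tumors was 0.38 in P1, 0.61 in P2 and 0.56 in P0, against 0.45, 0.68 and 0.63 over all genes tested. For complex III it was 0.84 in P2, against 0.25 in P1 and 0.31 in P0.

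None of the genes listed as working with these complexes passed the adjusted threshold by limma, where 0.0% of all genes tested did. Of 36 complex I genes, 16 (44.4%) were higher and 5 (13.9%) lower in P1 than in P0 in both tumors, where 29.2% and 17.6% of all genes were. In P2 against P0, 15 (41.7%) were higher and 2 (5.56%) lower, where 24.5% and 22.9% of all genes were. The median log2 differences were 0.27 and 0.44, and 2 and 6 genes had an unadjusted p under 0.05 (limma), all higher, against 1.89% and 3.91% of all genes. *Ndufa4*, counted with complex I by name but known as a complex IV subunit, had 588 and 338 RPKM in P1, 632 and 484 RPKM in P2 and 234 and 491 RPKM in P0. *Cyc1*, the cytochrome c1 of complex III that the choice by symbol leaves out, had 47.0 and 34.3 RPKM in P1, 32.0 and 38.7 RPKM in P2 and 42.9 and 36.1 RPKM in P0. Neither gene had the same direction in both tumors in P2 against P0. Assembly factors of the 3 complexes (28 tested) had a median of 0.17 in the P1 comparison with P0 and of 0.07 in the P2 comparison.

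Regulators of these genes are known mostly as transcription factors and coactivators. *Nrf1* had 7.07 and 6.62 RPKM in P1, 4.66 and 6.22 RPKM in P2 and 8.2 and 5.46 RPKM in P0, and *Gabpa* had 9.43 and 14.4 RPKM in P1, 7.02 and 14.6 RPKM in P2 and 11.2 and 14.3 RPKM in P0. Neither had a direction shared by both tumors in either comparison with P0. *Esrra*, an orphan receptor that acts with PGC-1, had 11.8 and 6.75 RPKM in P2, against 2.16 and 4.24 RPKM in P1 and 0.887 and 3.37 RPKM in P0, with both P2 libraries the highest. *Ppargc1a* reached 2.61 RPKM in P2 of tumor 1 and at most 0.274 RPKM elsewhere. Of the 6 members with the NRF1 letters, 4 (*Atp5g2*, *Atp5k*, *Cox6a1* and *Uqcr11*) were higher in P2 than in P0 in both tumors and 1 (*Atp5l*) was lower, where 32.4% of all members and 24.5% of all genes were higher. For *Atp5g2* and *Uqcr11* the tumor 1 log2 difference of P2 from P0 was only 0.13. In P1 against P0, 1 was higher (*Atp5g2*) and 1 lower (*Uqcr11*). Of the 4 with the GABPA letters, 2 were higher and 1 lower in P2, and 1 was higher and 2 lower in P1, in both tumors. Of all genes, 24.5% were higher and 22.9% lower in P2, and 29.2% were higher and 17.6% lower in P1. Whether the letters have a part in these directions was not tested.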

How the data were processed

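The authors sorted the cells, enriched poly(A) RNA, and had it sequenced on an Illumina instrument, with alignment by Illumina's standard pipeline. The aligner version, annotation and genome build are not given in the sources used here. The deposited values are the authors' RPKM per gene and library. The authors' group means for P1 and P0, a normalized signal deposited in the same table, were used only to recover gene lengths and whole reads (14896 of 14897 genes, 100.0% of these whole within 0.01 reads). Deposited columns of the authors' comparison of P1 and P0 (overall mean, fold change, its log2, p-value and adjusted p-value) were not used.

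Genes with a symbol and at least 1 RPKM in at least 2 libraries (12512) were tested on log2(RPKM + 1) with limma (version 3.58.1, R version 4.3.3; trend over mean level) in a model of all 6 libraries without a block, with Benjamini-Hochberg adjustment over all genes (threshold 0.05). Fold changes are on that scale and understate the change of low genes. Tumor numbers pair the libraries by their labels, and same-tumor deviations correlated at 0.185 (P1 and P0), 0.211 (P2 and P0) and 0.242 (P1 and P2). The procedure was tested on simulated data with the same spread for every gene, no tumor pairing and no loss of reads in single libraries. It was thus not tested under those features of the real libraries. Any member may be named with its RPKM, and fold changes are given for the 3 highest and 3 lowest members per comparison with the same direction in both tumors, with exceptions stated in the text. The members and gene lists were chosen with earlier results of these data known. Genes were matched to RefSeq by identifier (38 of 38), which supplied the promoter windows.  Alternatives were another pseudocount (0.1), no filter, a tumor block, voom on the recovered reads, quantile normalization, equal medians, removal of the trend with gene length, core subunits alone and each library left out. Whether reads shared with processed pseudogenes were split is not stated, so levels of these short genes may include such reads.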

Additional observations from a re-analysis of the deposited data

How the results depend on the processing

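No member passed the adjusted threshold by limma under any alternative, except *Uqcrq* without the P2 library of tumor 2, where the members called numbered 1 in P2 against P0 and 1 in P1 against P2 (0 to 1 over the libraries left out). Tumor numbers pair the libraries, and with the replicate block the members at an unadjusted p under 0.05 were 4 in P2 against P0 and 5 in P1 against P2 (6.13% and 4.49% of all genes). With the block and the length trend removed they were 3, 6 and 5 in the 3 comparisons (3.01%, 5.28% and 4.27% of all genes). With the length trend removed alone they were 4 in P2 against P0 (3.61% of all genes), and without a filter 2 (3.69%). With voom they were 2 in P2 against P0 and 6 in P1 against P2 (4.65% and 3.74% of all genes). Leaving out each library in turn gave 1 to 5 in P1 against P0, 1 to 8 in P2 against P0 and 0 to 7 in P1 against P2. The highest counts came without P0 of tumor 2 (5 and 8, with 7.77% and 8.18% of all genes) and without P2 of tumor 2 (8 and 7, with 13.2% and 13.2% of all genes). The block called 0, 3 and 0 genes of all, and changed no other call of a member.

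The median log2 fold change of the members in P1 against P0 was -0.095 with voom, -0.067 with quantile normalization (which moved the median of all genes to -0.028, against 0.117), -0.318 with the length trend removed, with or without the block, and -0.061 for core subunits only. Removing the length trend gave -0.125 in P2 against P0, also with the block, so the direction of that median depends on how short genes are treated. Leaving out each library gave medians of -0.085 to 0.028 in P1 against P0, -0.027 to 0.273 in P2 against P0 and -0.249 to 0.073 in P1 against P2. Genes without reads set to their limit left the medians at -0.04, 0.13 and 0.04.

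The summed complex III log2 ratio of P1 to P0 was -0.13 with equal medians of expressed genes and 0.05 without its most abundant gene, against -0.05. Without *Cox6a1*, an alternative added after the values were seen, that of complex IV was 0.27 in P2 against P0 and -0.28 in P1 against P2, against 0.39 and -0.45. The fold changes that changed direction did so when 1 library was left out, and the cause was not tested. Over the libraries left out they were -1.28 to 0.20 for *Atp5g3* and -1.13 to 0.07 for *Cox7a2* in P1 against P0, -0.04 to 2.75 for *Uqcr10* in P2 against P0, and -6.04 to 0.09 for *Atp5k* in P1 against P2. At these depths (19037070 to 48008802 reads), a gene without a read in a library is bounded by the limit of 3 reads only.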

Other observations

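Complex II, which passes electrons from succinate to ubiquinone and belongs to the citric acid cycle as well, had its P2 libraries above the others. The 6 genes of the list in the table, with the assembly factors *Sdhaf1* and *Sdhaf2* among them, summed to 242 and 222 RPKM in P2, 161 and 175 RPKM in P1 and 126 and 153 RPKM in P0. All 6 had a positive log2 difference in P2 against P0 (median 0.67, all genes 0.00). In both tumors 4 of them (66.7%), the subunit genes *Sdha*, *Sdhb*, *Sdhc* and *Sdhd*, were higher, where 24.5% of all genes were. None passed the adjusted threshold by limma, where 0.0% of all genes tested did. Fibroblast markers were also higher in P2 (52.0 and 354 RPKM) than in P0 (1.68 and 5.08 RPKM), and their part in this difference was not tested. *Sdhc*, a membrane anchor subunit, had 52.4 and 49.3 RPKM in P2, 20.3 and 30.1 RPKM in P1 and 30.9 and 24.6 RPKM in P0, without overlap between P2 and the other populations. *Sdhd*, the other anchor, had 71.1 and 48.5 RPKM in P2, 30.7 and 36.9 RPKM in P1 and 28.6 and 39.0 RPKM in P0, and the flavoprotein gene *Sdha* had 65.3 and 45.7 RPKM in P2, 37.9 and 35.9 RPKM in P1 and 26.8 and 40.1 RPKM in P0. Both were highest in P2 in each tumor. The remaining subunit gene, *Sdhb*, had 36.0 and 67.2 RPKM in P2, 50.8 and 60.1 RPKM in P1 and 23.8 and 42.0 RPKM in P0. In tumor 1 it was thus lower in P2 than in P1. *Sdhaf1* was lower in P2 than in P0 in tumor 1 (7.74 against 12.8 RPKM), and *Sdhaf2* in tumor 2 (2.0 against 3.22 RPKM).

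Glycolysis genes (14) had a median log2 difference from P0 of 0.01 in P1 and 0.16 in P2, with 4 (28.6%) and 6 (42.9%) genes higher and 0 lower in both tumors, where 29.2% and 24.5% of all genes were higher and 17.6% and 22.9% lower. Their within-tumor medians had opposite signs, -0.18 and 0.31 in P1 and -0.30 and 0.54 in P2. The citric acid cycle list (19) had medians of 0.13 and 0.19, and the hypoxia response list (10 tested) of -0.02 and -0.09. Regulators of mitochondrial biogenesis (13 tested) had medians of 0.33 and 0.15, and genes of mitochondrial mass and carriers (19) of 0.08 and 0.12. No gene of these lists passed the adjusted threshold by limma, where 0.0% of all 12512 genes tested did.

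Macrophage markers (5 of 7 listed had values) summed to 6.28 and 25.5 RPKM in P1, 16.9 and 17.5 RPKM in P2 and 3.89 and 17.2 RPKM in P0. Pericyte markers (6 of 8) summed to between 8.24 and 23.2 RPKM, and adipocyte markers (2 of 9) to at most 10.8 RPKM.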
